A study of Mus musculus with 2 samples.

Results

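The receptors and SMAD proteins of bone morphogenetic protein (BMP) signalling were examined in differentiated female germline stem cells (FGSCs), since BMP4 was part of the medium that induced their differentiation. The 10 genes were chosen by their known role in the pathway, out of 51243 genes to which an ID of the deposited tables could be given. They encode the type I receptors BMPR1A, BMPR1B and ACVR1, the type II receptor BMPR2, the receptor-activated SMAD1 and SMAD5, the common partner SMAD4, the inhibitory SMAD6 and SMAD7, and the pseudoreceptor BAMBI. Their counts were summed over every ID of a gene in each library.

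Both libraries, replicates 1 and 2, were of female cells of the CD-1 strain and belonged to a single group, so no comparison between conditions could be made. The cells had been grown on STO feeder cells, a mouse embryonic fibroblast line inactivated with mitomycin C, and were then kept for 3 days on a layer of granulosa cells, which surround and support the oocyte in the follicle. The medium of these 3 days held 10 ng/mL BMP4 and 10 µM retinoic acid (RA) and lacked GDNF, EGF and LIF. According to the labels the cells were in premeiotic interphase, and according to the methods each library was made from 5 to 8 cells by a Smart-seq protocol, which copies polyadenylated RNA and amplifies the cDNA by PCR. Nothing in the labels says whether the replicates came from separate cultures, so the spread between them may be technical.

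A BMP ligand brings type I and type II receptors together, and the type II receptor, a serine/threonine kinase that is active without ligand, phosphorylates the type I receptor. The activated type I receptor phosphorylates SMAD1, SMAD5 or SMAD9, which bind SMAD4 and enter the nucleus, where the Id genes are classical targets. SMAD6, SMAD7 and BAMBI act against the signal and are themselves commonly induced by it. In the mouse, BMP signalling is required for the formation of primordial germ cells and is used again in the ovarian follicle.

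Replicate 1 held 1517151 counts and replicate 2 held 12442, which is 121.9 times fewer, and in counts per 1000000 (CPM) a single count was worth 0.659 in the first library and 80.4 in the second. A transcript with 3 counts, the smallest level taken as shown here, stood at 1.98 CPM in replicate 1 and at 241.1 CPM in replicate 2. The replicates also differed in composition, with 1.51% of the counts in replicate 1 and 14.6% in replicate 2 on transcripts annotated as retained introns. Markers of germ cells were at or near 0: of 8 genes compared 7 had no count in either replicate, with Ddx4, Dazl and Pou5f1 among them, and Kit had 1 count in replicate 1. By contrast, 5 of 9 granulosa cell markers and 5 of 10 fibroblast markers reached 3 counts in replicate 1, and 0 and 3 did in replicate 2. Of all protein-coding genes compared, 35.9% did so in replicate 1 and 4.22% in replicate 2. The summed level of the granulosa cell markers was 471.9 CPM in replicate 1 and 241.1 CPM, from 3 counts, in replicate 2. For the fibroblast markers it was 2886 and 1286 CPM, and Dcn alone had 1503 CPM in replicate 1. Foxl2, Amh, Cyp19a1, Lum and Pdgfrb were listed at 0 in both replicates. Vim, Fn1 and Thy1 had 1 count each in replicate 1, and in replicate 2 Fn1 had 5 and the others 0. A further 4 germ cell markers had IDs that could belong to another gene and were not compared, Ifitm3 with 10577 and 6 such counts in replicates 1 and 2, and Stra8, Sycp3 and Dppa3 with 0. The germ cell markers that could be compared thus did not bear out the label in these counts, whose depth and shared bases limit such a check, and the part of other cell types in the values below was not tested. Fewer cells of a type and less RNA per cell cannot be told apart in such libraries.

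The tables list Ensembl transcripts by ID and most coding transcripts by a protein accession, without gene names. An accession was given to a gene only where its place among annotated transcripts of GRCm38 left 1 candidate gene. Among Ensembl IDs hidden as a check, 15010 were left with 1 candidate gene, and 99.96% of these were in the right gene. Hidden IDs without a single candidate gene do not enter this rate. Of the 10 reviewed mouse accessions known for the genes examined, 9 were listed and each of the 9 was placed in its own gene. The reviewed accession of Bmpr1a was not listed, and the 4 accessions given to Bmpr1a rest on their place alone. Reads on exonic bases shared by several transcripts were largely uncounted, since just 3 of 10296 Ensembl IDs without exonic bases of their own were counted in replicate 1 and 0 in replicate 2. A gene listed at 0 can therefore have been transcribed. Intervals in brackets are exact 95% Poisson intervals, which cover counting error only. Levels are called apart beyond counting error where neither interval holds the other level, so the intervals themselves may still overlap.

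Among the 10 genes, 7 reached 3 counts in replicate 1, namely Bmpr1a, Acvr1, Bmpr2, Smad1, Smad5, Smad4 and Smad7. Of all 46540 genes compared 14.6% did so, and of the 13516 protein-coding genes among them 35.9%. In replicate 2 the rule was met by Smad5 and Smad7, 2 of the 10, against 2.00% of all genes and 4.22% of protein-coding genes. Counts in replicate 1 as well as in replicate 2 were found for 5 of the 10, Bmpr1a, Acvr1, Bmpr2, Smad5 and Smad7, against 3.48% of all genes and 9.41% of protein-coding genes. Smad1, Smad4 and Smad6 had counts in replicate 1 alone, and Bmpr1b and Bambi had none in either replicate. The genes compared are those without an ID that could also be of another gene, a condition that Bmpr1b does not meet. In replicate 1 the median level per length of the 10 genes was an FPKM of 7.285, and that of the protein-coding genes was 0. FPKM stands for counts per kilobase of all exonic bases of the gene and per 1000000 counts of the library.

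**Figure D1:**
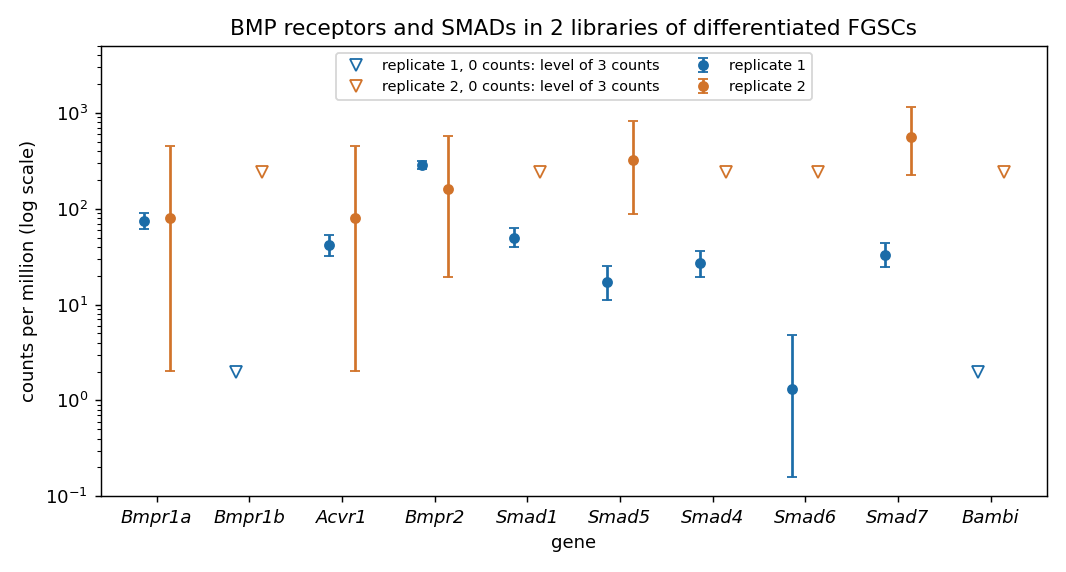
Level of each of the 10 genes in counts per 1000000 (CPM) on a log scale, with replicate 1 in blue and replicate 2 in orange. Points are single libraries, bars are exact 95% Poisson intervals, and open triangles mark the level of 3 counts where a gene had 0. For Smad5 and Smad7 the points of replicate 2, at 321.5 and 562.6 CPM, lie above those of replicate 1, at 17.1 and 33.0 CPM, with intervals that do not meet. Any gene with 3 counts in replicate 2 stands at 241.1 CPM or more.

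Summed over the 10 genes, replicate 1 had 810 counts and replicate 2 had 15, equal to 533.9 CPM [497.8 to 572.0] and 1206 CPM [674.8 to 1988]. At the level of replicate 1, 6.64 counts would have fallen in replicate 2. Smad5 and Smad7, the genes with the most counts in replicate 2, had 76 of the 810 counts and 11 of the 15. Without this pair, which was chosen for those counts so that a lower sum in replicate 2 follows from the choice, the sum was 483.8 CPM in replicate 1 and 321.5 CPM [87.6 to 823.1] in replicate 2. Receptors took 75.9% of the 810 counts of replicate 1, with 615, and 26.7% of the 15 counts of replicate 2, with 4. SMADs took 24.1% in replicate 1 and 73.3% in replicate 2. These are shares of counts, not of levels per length. Bmpr2, with 17983 exonic bases the longest of the 10 genes, had 438 of the 615 receptor counts of replicate 1. The part that gene length and the unequal depth and composition of the libraries have in these shares was not tested.

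The type I receptors, which bind the ligand and phosphorylate the SMADs, were represented by Bmpr1a and Acvr1. Bmpr1a (ENSMUSG00000021796.15, chromosome 14, 34410734 to 34503341, minus strand) had 114 counts in replicate 1 and a single count in replicate 2, equal to 75.1 CPM [62.0 to 90.3] and 80.4 CPM [2.04 to 447.8]. The level of replicate 1 corresponds to 0.935 counts in replicate 2, so the replicates did not differ beyond counting error. Each of these counts fell on 1 accession, Q53Z43, and the other 3 accessions of the gene, which have between 90 and 168 exonic bases of their own, had 0. Gm17110, a gene antisense to Bmpr1a, shares 3.77% of the 50-base stretches of Bmpr1a transcripts and itself had 0 and 1 counts. Whether the counting used strand is not given in the sources used here.

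Acvr1 (ENSMUSG00000026836.15, chromosome 2, 58388644 to 58567157, minus strand), whose product ALK2 prefers BMP6 and BMP7 to BMP4, had 63 and 1 counts in replicates 1 and 2. These are 41.5 CPM [31.9 to 53.1] and 80.4 CPM [2.04 to 447.8], again not apart beyond counting error. In replicate 1, 62 of the 63 counts fell on the coding accession P37172. The single count of replicate 2 fell on a non-coding processed transcript of the gene (58388644 to 58516272), which had 1 count in replicate 1. At the level of replicate 1, 0.517 counts of Acvr1 would have fallen in replicate 2.

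Bmpr1b (ENSMUSG00000052430.15, chromosome 3, 141837136 to 142169425, minus strand), a type I receptor known for its role in granulosa cells and in skeletal patterning, had 0 counts in both replicates. The exact interval of a count of 0 reaches up to 2.43 CPM in replicate 1 and 296.5 CPM in replicate 2. The value is less certain than that of the other receptors, as 27.7% of the exonic bases of Bmpr1b, 1651 of 5962, belong to 1 transcript only. A further 3 accessions could by their place belong to Bmpr1b or to its neighbour Pdlim5, and 1 of these, Q8CI51, had 271 and 0 counts in replicates 1 and 2. Q8CI51 is known as the reviewed entry of Pdlim5, and it was left out of the sum.

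Bmpr2 (ENSMUSG00000067336.6, chromosome 1, 59763400 to 59879014, plus strand), the type II receptor used mainly by BMPs, had the most counts of the 10 genes in replicate 1. Its 438 counts in replicate 1 and its 2 counts in replicate 2 are 288.7 CPM [262.3 to 317.0] and 160.7 CPM [19.5 to 580.7]. The interval of replicate 2 holds the level of replicate 1, which corresponds to 3.59 counts there. Bmpr2 also has the longest exonic sequence of the 10 genes, 17983 bases, nearly all of it (98.3%) in 1 ID only.

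The counts of Bmpr2 were spread over 3 transcripts. The coding accession O35607 had 377 counts in replicate 1 and both counts of replicate 2. Transcripts annotated as retained introns, at 59850665 to 59852351 and at 59851477 to 59856195 within the gene, had 5 and 56 counts in replicate 1 and 0 in replicate 2. Together they held 61 of the 438 counts, 13.9% with an exact 95% binomial interval of 10.8% to 17.5%. Per kilobase of exonic sequence of their own, the coding transcript had 29.9 counts in replicate 1, and the retained introns had 9.75 and 12.25. Of the 10 genes, Bmpr2 was the only one with counts on a transcript annotated as a retained intron, and such transcripts are also listed for Smad1 and Smad5, with 0 counts and 209 and 89 bases of their own.

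**Figure D2:**
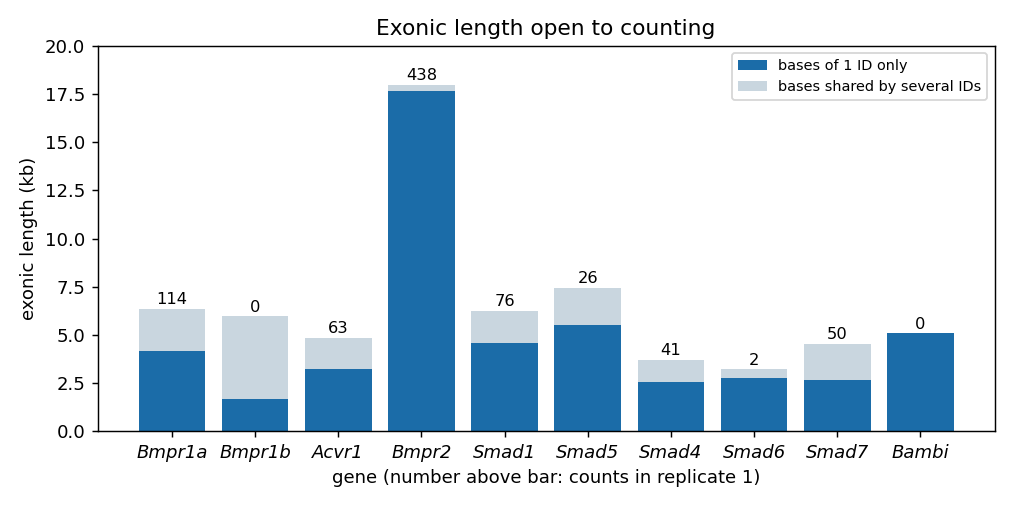
Exonic length of each gene in kilobases, divided into bases that belong to 1 ID only (dark) and bases shared by several IDs (light), with the counts of replicate 1 above each bar. Bambi has all of its 5074 bases in 1 ID and 0 counts, whereas Bmpr1b has 27.7%. For Bmpr1b and Smad7, whose accessions could not be tied to single transcripts, each coding transcript was taken as an ID.

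The receptor-activated SMADs, which carry the signal from the receptor to the nucleus, were both counted in replicate 1. Smad1 (ENSMUSG00000031681.16, chromosome 8, 79338395 to 79399518, minus strand) had 76 counts in replicate 1, 50.1 CPM [39.5 to 62.7], and 0 in replicate 2. At that level 0.623 counts would have fallen in replicate 2, so its 0 there is no sign of a lower level. Of the 76 counts, 75 fell on accession P70340 and 1 on Q8C3Y6. Smad5 (ENSMUSG00000021540.16, chromosome 13, 56703010 to 56742377, plus strand) had 26 counts in replicate 1, 17.1 CPM [11.2 to 25.1], and 4 counts in replicate 2, 321.5 CPM [87.6 to 823.1]. The level of replicate 1 would give 0.213 counts in replicate 2 and lay below its interval. A gene at that level which reaches 3 counts in replicate 2, at 241.1 CPM, must stand higher there. How many other genes had such an excess was not counted. In replicate 2 the intervals of Smad1, up to 296.5 CPM, and of Smad5 overlap, and no difference between the genes is read from 0 and 4 counts. The 26 and 4 counts of Smad5 in replicates 1 and 2 fell on the coding accession P97454 alone. The small RNAs annotated within Smad5 had 0 counts in both replicates.

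Smad4 (ENSMUSG00000024515.13, chromosome 18, 73639009 to 73703780, minus strand), the partner that receptor-activated SMADs of the BMP and the TGF-β branch share, had 41 and 0 counts in replicates 1 and 2. Its level in replicate 1 was 27.0 CPM [19.4 to 36.7], at which 0.336 counts would have fallen in replicate 2. The counts fell on accession P97471. The 4 non-coding transcripts listed for Smad4 have at most 100 bases of their own and had 0 counts.

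Of the inhibitors, Smad7 was counted in both replicates, whereas Smad6 had 2 counts in all and Bambi 0. Smad7 (ENSMUSG00000025880.11, chromosome 18, 75367529 to 75395935, plus strand), which blocks the type I receptors of both the BMP and the TGF-β branch, had 50 counts in replicate 1, 33.0 CPM [24.5 to 43.5]. In replicate 2 it had 7 counts, 562.6 CPM [226.2 to 1159], the most of the 10 genes there, where the level of replicate 1 would give 0.410. As for Smad5, reaching 3 counts in replicate 2 already sets a level above that of replicate 1. In both replicates the counts of Smad7 fell on accession O35253. Smad6 (ENSMUSG00000036867.7, chromosome 9, 63953076 to 64022059, minus strand), which acts mainly on the BMP branch, had 2 counts in replicate 1, 1.32 CPM [0.160 to 4.76], and 0 in replicate 2. Bambi (ENSMUSG00000024232.2, chromosome 18, 3507923 to 3516404, plus strand), a receptor-like protein without a kinase domain, had 0 counts in both replicates. Its 5074 exonic bases belong to 1 ID, so here the 0 was not set by shared bases, and 3 counts would have been an FPKM of 0.390 in replicate 1 and 47.5 in replicate 2. Smad6 was likewise open to counting, with 85.8% of its exonic bases in 1 ID.

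Per kilobase of all exonic bases, Bmpr2 and Bmpr1a led the order in replicate 1. Bmpr2 had an FPKM of 16.05 [14.6 to 17.6], Bmpr1a 11.8 [9.76 to 14.2] and Acvr1 8.60 [6.61 to 11.0]. Smad1 followed with 8.0 [6.30 to 10.0], Smad7 with 7.29 [5.41 to 9.61] and Smad4 with 7.28 [5.22 to 9.88]. Smad5 had 2.31 [1.51 to 3.38] and Smad6 0.411 [0.0498 to 1.49]. Bmpr2 exceeded Bmpr1a, Bmpr1a exceeded Acvr1, and Smad4 exceeded Smad5 by 3.15 times, each beyond counting error by the rule above. The intervals of Bmpr1a and Acvr1 nevertheless overlap. Within the run from Acvr1 through Smad1 and Smad7 to Smad4, no gene differed from the next beyond counting error. Among protein-coding genes compared, 88.8% had a lower FPKM than Bmpr2 in replicate 1, and 74.6% had a lower one than Smad5.

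The order of the leading genes depended on the length used. With counts per kilobase of exonic bases of 1 ID only, Bmpr1a stood at 18.1 per 1000000 counts [14.9 to 21.8] and Bmpr2 at 16.3 [14.8 to 17.9], so the order of the pair turned and they were no longer apart beyond counting error. Acvr1 at 12.9, Smad7 at 12.5, Smad1 at 11.0 and Smad4 at 10.6 followed. From Bmpr2 down to Smad4 no gene differed from the next beyond counting error. Only neighbours were compared in this way, and the intervals of Bmpr2 and of Smad4, 7.62 to 14.4, do not meet. Smad5 at 3.12 [2.04 to 4.57] lay below Smad4 beyond counting error on either length. Both lengths pool all IDs of a gene, also those hardly counted. Per kilobase of its own bases, the most counted ID had 53.65 counts for Smad1, 30.8 for Acvr1, 30.4 for Bmpr1a and 29.9 for Bmpr2. For Smad4 it had 17.0, for Smad5 4.90 and for Smad6 0.795, and Smad7 had no such value. Smad1 thus stood first on that length, for which counting error was not computed. In replicate 2, with at most 7 counts for a gene, the FPKM was 124.4 [50.03 to 256.4] for Smad7 and 43.3 [11.8 to 110.9] for Smad5. The replicate 2 values of Bmpr1a, Acvr1 and Bmpr2 rest on 1 or 2 counts, and the other 5 genes had 0.

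**Figure D3:**
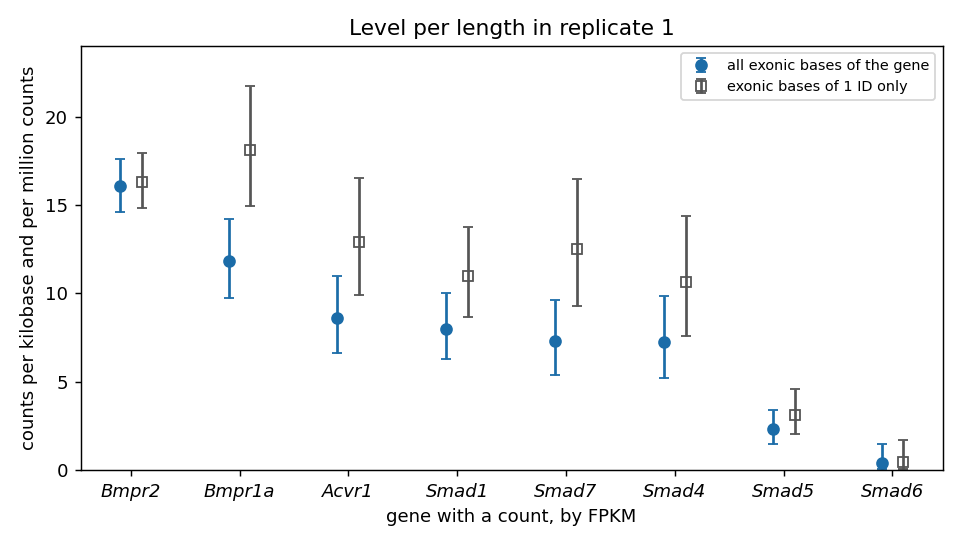
Level per length in replicate 1 for the 8 genes with a count, in counts per kilobase and per 1000000 counts. Blue points use all exonic bases of the gene, grey squares use exonic bases of 1 ID only, and bars are exact 95% Poisson intervals. Bmpr2 leads on the first scale with 16.05 and Bmpr1a on the second with 18.1, while Smad5 and Smad6 lie lowest on both.

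The other genes of the pathway were counted by list in the same way. Beside each list stand the shares over all genes compared that reached 3 counts, 14.6% in replicate 1 and 2.00% in replicate 2. For protein-coding genes these shares were 35.9% and 4.22%, and no list was tested against them. Of 11 other receptors of the superfamily that could be compared, 5 reached 3 counts in replicate 1 and 2 in replicate 2. Tgfbr3, the coreceptor betaglycan, had 1196 counts in replicate 1, an FPKM of 120.4, and 0 in replicate 2, where 3 counts would be 241.1 CPM and its level in replicate 1 was 788.3 CPM. Rgmb, a BMP coreceptor, had 69 and 0 counts, and Tgfbr2, the type II receptor of TGF-β, had 46 and 0. Both Acvr2b and Acvrl1 had 0 and 5 counts in replicates 1 and 2. The type II receptors that can stand in for Bmpr2 were thus little counted in replicate 1, with 3 counts for Acvr2a and 0 for Acvr2b.

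Of the other SMADs, 2 of 3 reached 3 counts in replicate 1 and 0 in replicate 2. Smad2 and Smad3, which serve the TGF-β and activin branch, had 246 and 15 counts in replicate 1, and the FPKM of Smad2 was 18.5. Smad9, the remaining receptor-activated SMAD of the BMP branch, had 0 counts in both replicates with all of its 5368 exonic bases in 1 ID. In these counts the BMP branch was therefore represented by Smad1 and Smad5.

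Of 10 BMP ligands compared, 1 reached 3 counts in replicate 1, where 14.6% of all genes and 35.9% of protein-coding genes did. This was Bmp5 with 3 counts. In replicate 2, 0 of the ligands reached 3 counts, and 5 had no count in either replicate. Bmp4 itself was listed at 0 in both, while its protein was supplied in the medium. Of 9 extracellular antagonists compared, 7 reached 3 counts in replicate 1 and 1 did in replicate 2, and the difference from the ligands was not tested. Grem1, which binds and blocks BMP2 and BMP4, had 1425 and 4 counts in replicates 1 and 2, with an FPKM of 226.4 and 77.5. Fst, which binds activin and some BMPs, had 229 and 0 counts, and Twsg1, which binds BMPs together with chordin, had 177 and 0. Fst is also one of the granulosa cell markers above.

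Of 8 SMAD regulators compared, 4 reached 3 counts in replicate 1 and 1 did in replicate 2. Tob1, which represses BMP signalling through the SMADs, had 227 and 0 counts, Ppm1a, a SMAD phosphatase, had 92 and 3, and Lemd3, an inner nuclear membrane protein that binds SMADs, had 9 and 0. Fkbp1a, which binds type I receptors, was listed at 0 in both replicates, with 1970 exonic bases in 1 ID. Of 9 BMP target genes compared, 5 reached 3 counts in replicate 1 and 1 did in replicate 2. Id2, an inhibitor of basic helix-loop-helix factors, had 179 and 0 counts with an FPKM of 48.4 in replicate 1, Gata2 had 148 and 0, and Gata3 had 63 and 1. Id1 could not be compared, since an accession that could be Id1 could also belong to another gene. With 1 group of 2 libraries, no likeness of pattern between these genes and the receptors or SMADs could be measured.

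**Figure D4:**
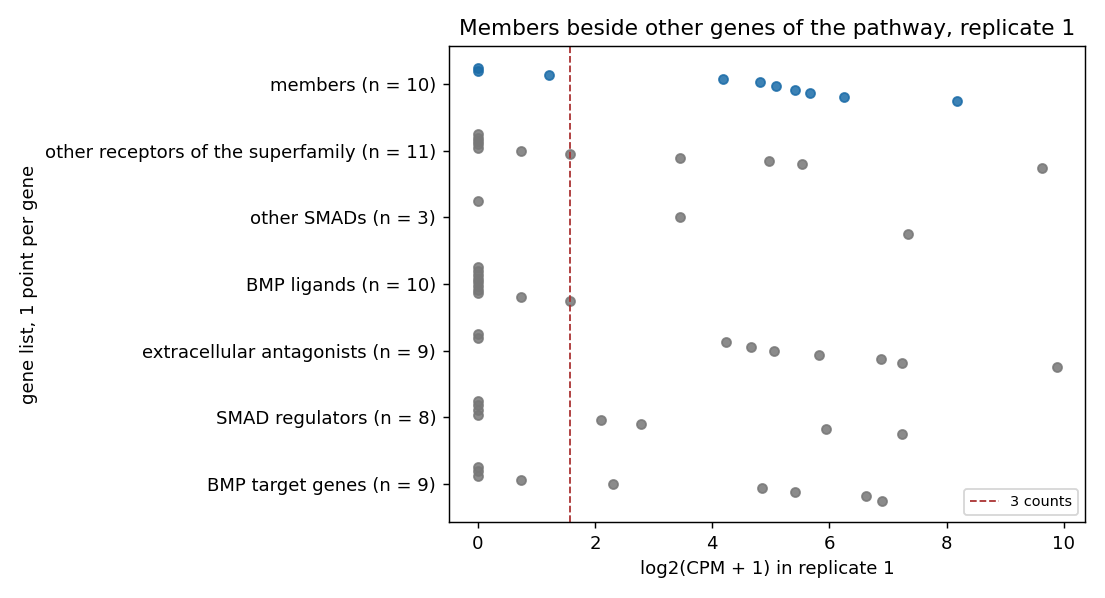
Levels in replicate 1 of the 10 genes examined, shown as members in blue, and of the other genes of the pathway in grey, as log2(CPM + 1), with 1 point per gene and 1 row per list. The broken line marks 3 counts, which 7 of the 10 members, 7 of 9 extracellular antagonists and 1 of 10 BMP ligands reached. Points at 0 on the horizontal axis are genes without a count.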

How the data were processed

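RNA-seq of differentiated FGSCs comprised 2 libraries of 1 group. The values deposited by the authors are whole-number counts for each ID, against mm10, without normalization or pooling. The submitters' processing notes name FastQC, Trim Galore, HISAT2 2.2.1 and featureCounts, whereas the methods describe TopHat and Cufflinks with FPKM, so the program behind the counts is uncertain. CPM and FPKM were computed here.

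Of 129311 IDs, 76066 were Ensembl transcripts, and 75055 of these were in GENCODE M21 (GRCm38). Of 53245 protein accessions, 45182 (84.9%) were placed in 1 gene by their position among annotated transcripts. The check hid 50% of the Ensembl IDs and took 20% of the hidden ones out of the order. IDs of 1 gene held 85.9% and 91.2% of the counts of replicates 1 and 2. Intervals cover counting error only, and PCR reads are not independent molecules. The summing and intervals were tested on simulated data.

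No test between samples was possible with 1 group. The 10 genes, the lists and the tests were chosen with earlier results of these data known. All 10 genes and, per list, at most 3 genes with the most counts were named, and others named were chosen after their values were seen. Genes with ambiguous IDs were left out of the comparisons. Alternatives concerned the count minimum, the IDs, the library total, retained introns, the length and the replicates. Python 3.11.15, numpy 2.4.6, scipy 1.17.1 and matplotlib 3.10.9 were used.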

Additional observations from a re-analysis of the deposited data

How the results depend on the processing

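With Ensembl transcript IDs only, 1 of the 10 genes reached 3 counts in replicate 1 in place of 7, 0 did in replicate 2 in place of 2, and 1 had a count in both in place of 5. The summed level was then 40.9 CPM in replicate 1 and 80.4 CPM in replicate 2, in place of 533.9 and 1206, since most coding transcripts are listed by accession. At least 1 count in replicate 2 was met by 5 genes. In replicate 1 the sum was 605.8 CPM without mitochondrial counts in the library total and 712.5 CPM with the 271 counts placed between Bmpr1b and Pdlim5. These would put Bmpr1b at 178.6 CPM, but all 271 fell on Q8CI51, known as the reviewed entry of Pdlim5. That value is therefore no level shown for Bmpr1b. Without Smad5 and Smad7, a choice made after seeing the data, the sum was 483.8 CPM in replicate 1 and 321.5 CPM in replicate 2. The mean sum of both replicates, 869.7 CPM, ranged from 533.9 to 1206 without one replicate. Without retained introns, the sums of 501.2 and 1412 CPM stayed within counting error. Bmpr2 moved to 252.3 CPM in replicate 1, below its interval of 262.3 to 317.0 CPM. Counts of 7 at a minimum of 10 and 8 at a minimum of 1 in replicate 1 were within 1.5 times the value given. On exonic bases of 1 ID only, the same counts are divided by a shorter length, and 5 of 8 levels then lay outside their earlier intervals. The size of this shift is set by the lengths, so counting error does not bear on it. No paired analysis was possible because replicates 1 and 2 are of the same group. Values of replicate 2 are limited by its 12442 counts, and the genes of accessions are inferred.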
